A study of Mus musculus with 11 samples.

Results

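Endothelin and nitric oxide signalling was described by 8 genes, Edn1, Edn3, Ece1, Ednra, Ednrb, Nos3, Nos2 and Pde5a, which were picked by gene symbol from the 32285 genes of the count tables. All 8 were found. Cells of the right brain of 11 mice were sequenced singly with the 10x Genomics 3′ kit, in 1 library per mouse. Wild-type C57BL/6 mice were sham operated (sham + WT group, replicates 1, 2 and 3) or underwent middle cerebral artery occlusion and reperfusion, a model of ischemic stroke (MCAO/R + WT group, replicates 1 and 2). Mice that lack the secreted glycoprotein Lrg1 were treated in the same ways (sham + Lrg1-/- group and MCAO/R + Lrg1-/- group, each with replicates 1, 2 and 5). Lrg1-/- is a conventional deletion, present in every cell throughout life, so that no result can be assigned to Lrg1 of a single cell type. The wild-type mice were male and young adult, while the knockouts came from another supplier, had been backcrossed to C57BL/6N mice and were given an older age and no stated sex. Genotype, age and source therefore cannot be told apart here. The study's discussion speaks of effects at an hour, without saying whether this was occlusion or reperfusion. Its methods give an hour of occlusion and several reperfusion times, and its infarct and edema measurements used a day of reperfusion. No reperfusion time is tied to the sequenced mice.

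Raw UMI counts, in which each UMI marks 1 captured mRNA molecule, were summed over all cells of a type in a library. Levels are given as CPM, those summed counts scaled to a common total with the TMM method, so that the mouse is the replicate. A difference is the log2 ratio of 2 groups from edgeR's quasi-likelihood fit over all genes of the cell type, with its standard error (SE). Each call of one of the 8 genes was repeated under up to 19 other settings, such as other filters, DESeq2 or 1 library left out. Calls of other genes were not repeated in this way. A gene passed the test at a Benjamini‒Hochberg adjusted p below 0.05 together with a natural-log fold change above 0.25 in size. Cell type names stand for clusters that resemble the type in markers; "endothelial cells", for instance, means endothelial-like cells. Levels are compared between cell types and groups for 1 gene at a time and never between genes.

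Lrg1 had 0 UMIs in the endothelial cells of all 6 knockout libraries and 7.05 to 545 CPM in those of the 5 wild-type libraries, which matches the labels. Between 3249 and 34181 cells per library passed the filters, and total UMIs ranged from 37159497 to 171813031 per library. Haemoglobin took 0.0227% to 0.0406% of the UMIs of a wild-type library and 3.44% to 8.99% of those of a knockout library, so the blood content moved with the genotype. Choroid plexus markers moved with it too, at 121 to 686 CPM in the endothelial cells of wild-type mice and 2727 to 11379 CPM in those of knockout mice. In MCAO/R + Lrg1-/- replicate 5, 15966 cells could not be named. At most 1.15% of the barcodes of the smaller library of a pair were shared. The endothelial cells expressed 8 of 8 defining markers, as did the pericytes and the vascular smooth muscle cells.

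Endothelins are short peptides that constrict vessels. They are cut from larger precursors, and endothelin-converting enzyme 1, the product of Ece1, performs the last cut. The Ednra receptor on muscle cells of the vessel wall mediates constriction, while Ednrb binds all endothelins, on endothelium leads to the release of nitric oxide, and is also a well known receptor of astrocytes. Nitric oxide made by Nos3 in endothelium relaxes the adjoining mural cells through soluble guanylate cyclase and cGMP, which Pde5a breaks down, and Nos2 is the inducible synthase best known from activated immune cells.

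The genes lie on 8 chromosomes in the GRCm38 build (GENCODE M21 annotation): Edn1 at chr13:42301476-42307990, Edn3 at chr2:174760619-174784042, Ece1 at chr4:137862237-137965229, Nos3 at chr5:24364810-24384474, Nos2 at chr11:78920787-78960254 and Pde5a at chr3:122728947-122859374, all on the plus strand, and Ednra at chr8:77663031-77724464 and Ednrb at chr14:103814625-103844402 on the minus strand. The promoters of both ligands and of Ednrb are printed because these 3 genes carried the contrast described below, a ligand whose endothelial level passed in no comparison of whole endothelial cells, a ligand that fell and a receptor that rose. Each sequence holds the 250 bases before a RefSeq transcription start in GRCm38.p6, read 5′ to 3′ on the gene's own strand. Capitals mark the letters CACCC, the core bound by Krüppel-like factors, or their reverse complement GGGTG.
Edn1, chr13:42301226-42301475, plus strand: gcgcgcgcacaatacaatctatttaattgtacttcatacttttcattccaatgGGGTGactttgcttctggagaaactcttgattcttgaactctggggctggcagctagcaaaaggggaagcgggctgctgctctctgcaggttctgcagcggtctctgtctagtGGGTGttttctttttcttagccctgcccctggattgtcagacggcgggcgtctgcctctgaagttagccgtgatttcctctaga
Edn3, chr2:174760369-174760618, plus strand: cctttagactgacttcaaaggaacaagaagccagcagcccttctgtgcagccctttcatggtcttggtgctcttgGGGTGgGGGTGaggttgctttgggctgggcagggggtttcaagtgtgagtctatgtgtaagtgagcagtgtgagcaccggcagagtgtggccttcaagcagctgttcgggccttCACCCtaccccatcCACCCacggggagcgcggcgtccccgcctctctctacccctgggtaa
Ednrb, chr14:103843702-103843951, minus strand: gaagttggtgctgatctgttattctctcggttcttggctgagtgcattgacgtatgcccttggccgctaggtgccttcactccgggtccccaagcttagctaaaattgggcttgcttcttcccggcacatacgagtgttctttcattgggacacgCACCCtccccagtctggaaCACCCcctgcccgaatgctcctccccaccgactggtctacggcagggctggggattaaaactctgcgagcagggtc
The Edn1 and Ednrb windows held 2 such matches each and the Edn3 window held 4. Of 32851 promoters of this length, 52.0% held at least 1. The AP-1 core TGANTCA and the letters GATAA, the core of a family of zinc finger factors, occurred in none of the 3 windows on either strand, against 6.75% and 22.6% of all promoters. These matches are a description of the letters only.

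Endothelial cells were the main source of Edn1. Their level was 221 ± 40.2 CPM (SD, n = 11), the lowest library at 162 and the highest at 292. They held 46376 of the 60664 Edn1 UMIs, on average 73.1% ± 18.0 of a library's UMIs. No library of the next type in order, fibroblasts at 21.1 ± 30.0 CPM (SD, n = 5), reached the lowest endothelial library. A UMI of Edn1 was seen in 39.1% to 67.4% of endothelial cells, at a median of 6003 to 12418 UMIs per cell, and in 1.9% to 5.55% of oligodendrocytes, which should lack it, at 3513 to 15797 UMIs. After thinning each cell to 1000 UMIs the shares were 12.6% to 20.6% and 0% to 1.42%.

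Edn3, the third endothelin, also came from endothelium, which held 12942 of its 15788 UMIs. Its level there was 60.5 ± 29.4 CPM (SD, n = 11), between 16.1 and 96.2. Fibroblasts had 126 ± 85.3 CPM in the 5 libraries with enough of them, between 60.8 and 232, a range that overlaps the endothelial one. Choroid plexus epithelial cells followed with 10.6 ± 6.66 CPM (n = 11).

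Ece1 was high in 3 cell types whose ranges overlapped. Endothelial cells had 265 ± 69.2 CPM (between 209 and 440, n = 11), pericytes 254 ± 141 CPM (between 95.8 and 431, n = 11) and fibroblasts 205 ± 56.1 CPM (between 137 and 276, n = 5). Vascular smooth muscle cells at 71.5 ± 15.6 CPM lay below the whole fibroblast range, followed by astrocytes at 56.5 CPM. Thus the enzyme was present both in the cells that held the ligands and in mural cells next to them.

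The receptors were found in different cells. Ednra was highest in pericytes, at 256 ± 69.9 CPM (between 121 and 346, n = 11), then in vascular smooth muscle cells, at 137 ± 50.5 CPM (between 60.6 and 229), and these 2 ranges overlapped. No library of the next type, fibroblasts with a mean of 24.9 CPM, reached the smooth muscle range. Endothelial cells had 1.6 CPM.

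Ednrb was spread over glia, myeloid cells and pericytes. Astrocytes had 206 ± 75.2 CPM (between 89.0 and 337, n = 11), macrophages 167 ± 72.4 CPM (between 43.1 and 262) and pericytes 156 ± 201 CPM (between 9.29 and 538), and none of these neighbours differed beyond their spread. Neural progenitors followed with 65.5 ± 14.4 CPM, oligodendrocyte precursors with 50.4, ciliated ependymal cells with 45.1 and choroid plexus epithelial cells with 32.2 ± 7.22. A UMI of Ednrb was seen in 21.7% to 72.5% of astrocytes, 25.7% to 56.2% of macrophages and 3.87% to 37.9% of pericytes, against 1.41% to 3.25% of oligodendrocytes.

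Of the nitric oxide synthases, Nos3 was endothelial. Its level there was 198 ± 30.8 CPM (between 167 and 277, n = 11), endothelial cells held 42718 of 53074 UMIs, and no other type overlapped this range. A UMI was seen in 55.2% to 79.6% of endothelial cells and in 1.83% to 7.71% of oligodendrocytes. Nos2 was rare in every type. The highest mean was that of neutrophils, at 13.7 ± 7.21 CPM in 4 libraries, on 78 UMIs in all, and 1235 of all 1635 Nos2 UMIs were endothelial, at 6.21 ± 2.81 CPM (between 2.56 and 10, n = 11), a range that overlaps the neutrophil one. Only 2.59% to 8.87% of endothelial cells had a UMI of Nos2, against 0% to 0.633% of oligodendrocytes.

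Pde5a, the enzyme that ends the cGMP signal, was a mural cell gene. Vascular smooth muscle cells had 288 ± 88.7 CPM (between 126 and 418, n = 11) and pericytes 212 ± 61.7 CPM (between 107 and 279), with overlapping ranges. Fibroblasts came next with 51.5 CPM and did not overlap the pericytes, and endothelial cells had 23.4 ± 4.13 CPM.

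**Figure D1:**
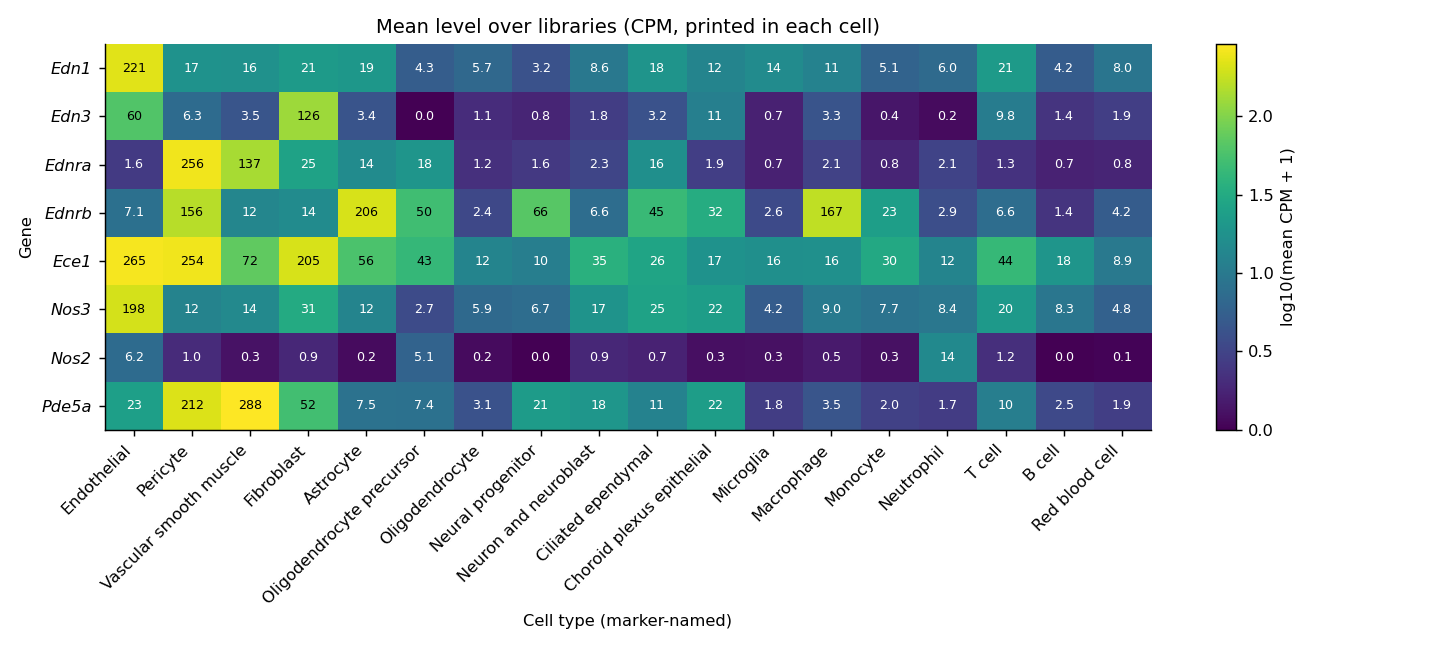
Mean level of each of the 8 genes in 18 cell types, in CPM averaged over the libraries with at least 20 cells of the type; the printed number is the mean and the colour its log10 after adding 1. Edn1 and Nos3 stand out in endothelial cells (221 and 198 CPM), Ednra and Pde5a in pericytes and vascular smooth muscle cells, and Ednrb in astrocytes, macrophages and pericytes.

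Likeness of pattern was measured as Pearson's r of log2(CPM + 1) over 18 cell types with 14913 genes, as a description, since the types share libraries. The genes most like Edn1 were Alox12 (r = 0.962), Myct1 (0.959) and Vil1 (0.953), and those most like Nos3 were Slco1a4 (0.963), Adgrl4 (0.954) and Unc45b (0.942). Edn3 was most like Cxcl12 (0.92), Ece1 most like Gpr4 (0.917), Ednra most like S1pr3 (0.962), Pde5a most like Tgfb1i1 (0.947) and Nos2 most like Lcn2 (0.929). Ednrb had no close match, with Pip4p2 at 0.741 first.

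Endothelial cells were next divided by vessel zone, with marker genes that did not include the 8 members. In a zone, levels are CPM of the zone's own counts, for libraries with at least 20 cells of it. Edn1 was highest in arterial cells, at 410 ± 26.5 CPM in sham + WT mice, 336 ± 26.9 in sham + Lrg1-/- mice, 416 ± 28.3 in MCAO/R + WT mice (n = 2) and 449 ± 127 in MCAO/R + Lrg1-/- mice (SD, n = 3 otherwise). Capillary cells had 186, 234, 180 and 145 CPM in the same order and venous cells 141, 145, 87.5 and 120 CPM. The arterial level was above the capillary level and above the venous level of the same mouse in 11 of 11 libraries.

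Edn3 shared the arterial side in sham + WT mice, with 189 ± 13.5 CPM in arterial, 65.2 ± 2.74 in capillary and 76.6 ± 15.9 in venous cells (SD, n = 3). Over all mice it was higher in arterial than in capillary cells in 8 of 11 libraries. The 3 exceptions were MCAO/R + WT replicate 1 and MCAO/R + Lrg1-/- replicates 2 and 5. Arterial cells of the MCAO/R + WT group had 59.9 and 182 CPM against 74.3 and 91.3 in capillary cells, and those of the MCAO/R + Lrg1-/- group had 55.7, 24.1 and 35.6 against 35, 70.6 and 61.9. Nos2 went the other way in sham + WT mice, with 12.4 ± 1.46 CPM in capillary, 9.61 ± 1.04 in venous and 2.16 ± 0.339 in arterial cells.

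The zones also changed in size. Capillary cells made up 57.5% to 68.4% of the endothelial cells in sham + WT mice and 39.1% to 52.2% in sham + Lrg1-/- mice, but 3.49% and 8.6% in MCAO/R + WT mice and 3.11% to 16.3% in MCAO/R + Lrg1-/- mice. Cells without a zone made up 3.43% to 20.4% of a sham library and 41.1% to 67.6% of an MCAO/R library. Fewer capillary cells and a loss of their markers cannot be told apart, so levels in a zone after MCAO/R rest on cells that still carried its markers.

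**Figure D2:**
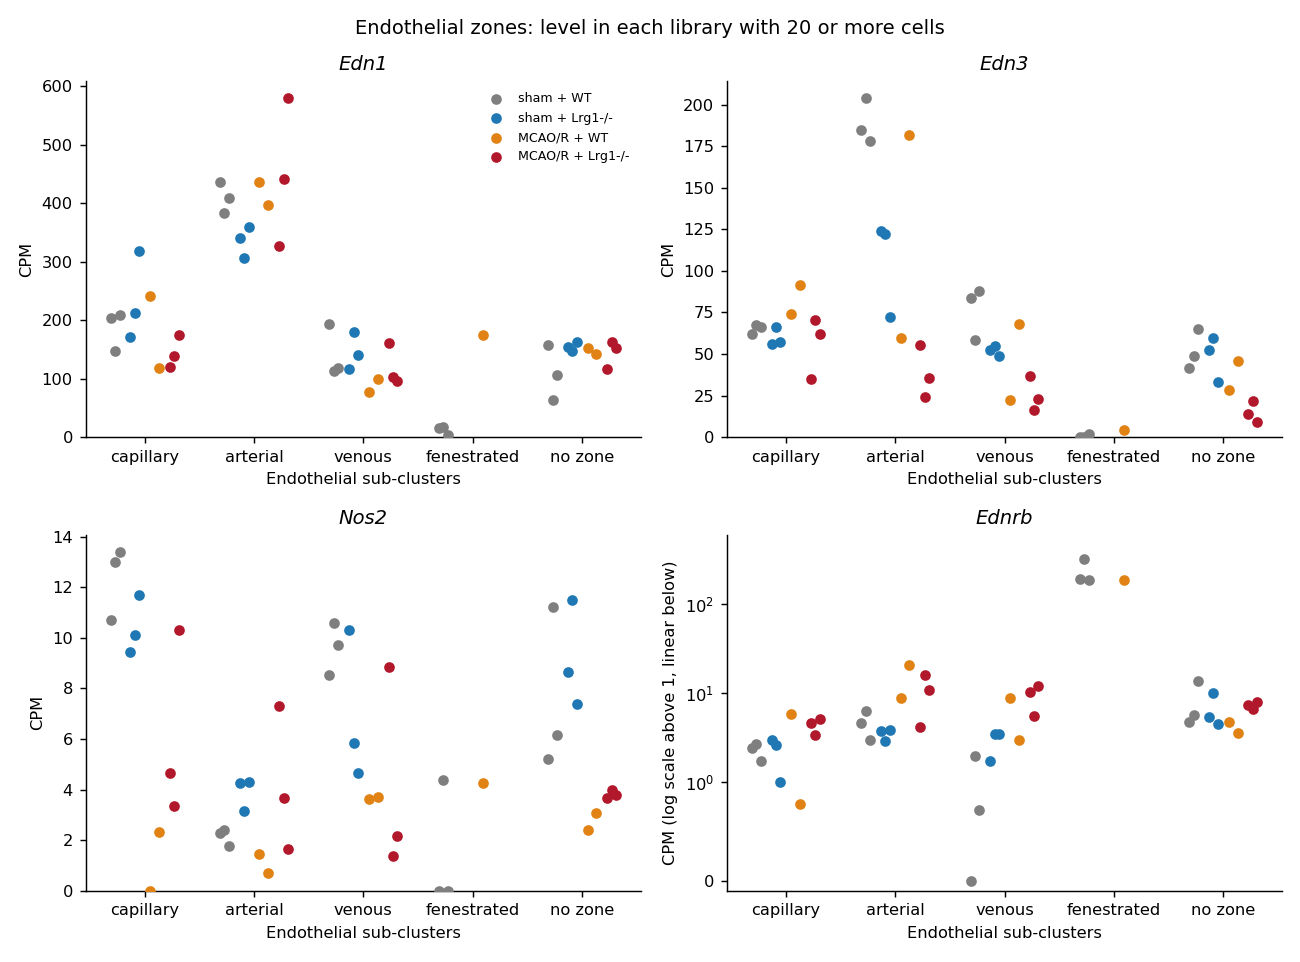
Levels of Edn1, Edn3, Nos2 and Ednrb in each endothelial zone, in CPM of the zone's counts (Ednrb: axis linear below 1 and logarithmic above), 1 point per library with at least 20 cells of the zone, coloured by group. Edn1 is highest in arterial cells of every group, Nos2 is highest in capillary cells of sham mice, and Ednrb reaches 186 to 318 CPM in the fenestrated cells of the sham + WT group.

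After MCAO/R, the comparison of genotypes asks how the groups differed in the injured brain, which includes any gap already present without MCAO/R. Over 12 cell types, 72 pairs of a member and a type could be tested, and 10 of them passed (5 up and 5 down in the knockout), or 13.9%. Of all gene and type pairs of those types, 14.7% passed, so the members as a set were called about as often as genes in general. The comparison of the MCAO/R + WT group with the sham + WT group gave 5 of 77 pairs (1 higher, 4 lower; 6.49%) against 7.68% of all. That of the MCAO/R + Lrg1-/- group with the sham + Lrg1-/- group gave 7 of 73 (4 higher, 3 lower; 9.59%) against 9.6%, and that of the sham groups gave 7 of 73 (5 higher, 2 lower; 9.59%) against 11%. The interaction of surgery and genotype gave 0 of 67 by edgeR and 0 by DESeq2, with 5 at an unadjusted p below 0.05, against 1.92% of all.

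Edn1 passed in none of the 4 comparisons in endothelial cells. It was at 244, 192 and 245 CPM in sham + WT mice, 195, 232 and 272 in sham + Lrg1-/- mice, 214 and 162 in MCAO/R + WT mice and 177, 292 and 207 in MCAO/R + Lrg1-/- mice. The ranges of all 4 groups overlapped. MCAO/R minus sham was -0.29 ± 0.20 (SE) in wild-type mice (edgeR adjusted p = 0.382) and -0.06 ± 0.18 in knockout mice (adjusted p = 0.862), and knockout minus wild type after MCAO/R was 0.28 ± 0.20 (adjusted p = 0.336). When arterial and fenestrated cells were left out, Edn1 in the rest was lower by -0.55 ± 0.16 in MCAO/R + Lrg1-/- mice than in sham + Lrg1-/- mice (adjusted p = 0.0344). These groups overlapped in capillary (120 to 175 and 171 to 318 CPM), venous (95.7 to 161 and 116 to 179) and zoneless cells (116 to 163 and 148 to 162). Capillary cells made up 3.11% to 16.3% and 39.1% to 52.2% of their endothelial cells, and zoneless cells 41.1% to 67.3% and 9.96% to 20.4%. The part of this shift was not tested.

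Edn3 fell. The endothelial level was 87.1, 96.2 and 95.9 CPM in sham + WT mice, 69.3, 82.6 and 55.4 in sham + Lrg1-/- mice, 36.9 and 70.4 in MCAO/R + WT mice and 30.8, 24.7 and 16.1 in MCAO/R + Lrg1-/- mice. Every MCAO/R + Lrg1-/- library was below every library of the other groups. In knockout mice the level after MCAO/R was 0.341 times the sham level (log2 difference -1.55 ± 0.27, SE; edgeR adjusted p = 0.00472), a call that held in 19 of 19 settings. The background in endothelial cells was 16.9% of 16923 genes in that comparison. Arterial cells (72.1 to 124 and 24.1 to 55.7 CPM), venous cells (49.0 to 54.9 and 16.4 to 36.9 CPM) and cells without a zone (33.2 to 59.8 and 8.86 to 21.6 CPM) of the knockout did not overlap between sham surgery and MCAO/R. Capillary cells did, at 56.3, 66.1 and 57.3 CPM and then 35, 70.6 and 61.9 CPM, the latter on 84 UMIs. In wild-type mice the difference was -0.81 ± 0.29 (adjusted p = 0.091), and the test of the difference between both responses gave -0.74 ± 0.39 (adjusted p = 0.45).

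After MCAO/R, endothelial Edn3 of the knockout was 0.451 times the wild-type level (log2 difference -1.15 ± 0.29, adjusted p = 0.0187, against 22.7% of all endothelial genes called). This call was lost without MCAO/R + WT replicate 2 or without MCAO/R + Lrg1-/- replicate 2, with a highest adjusted p of 0.165. It held when only arterial cells were summed (-1.70 ± 0.44, adjusted p = 0.0283) and when arterial and fenestrated cells were left out (-1.17, adjusted p = 0.0132). The sham groups differed by -0.41 ± 0.26 (adjusted p = 0.303).

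Choroid plexus epithelial cells had little Edn3, and it separated the genotypes after MCAO/R. It was at 25.5 and 19.7 CPM in MCAO/R + WT mice, on 39 and 15 UMIs, and at 5.74, 6.67 and 3.68 CPM in MCAO/R + Lrg1-/- mice. The sham + WT group had 9.3, 7.51 and 14.3 CPM and the sham + Lrg1-/- group 6.45, 9.71 and 7.82. The 2 MCAO/R + WT libraries were the highest of all 11. Knockout minus wild type was -2.16 ± 0.35, or 0.224 times the level (edgeR adjusted p = 0.00179, with 22.5% of the type's genes called), and was lost in 1 of 18 settings, with cells thinned to 1000 UMIs. MCAO/R minus sham did not pass in either genotype (1.22 ± 0.37, adjusted p = 0.128 in wild-type mice; -0.52 ± 0.28, adjusted p = 0.448 in knockout mice), nor did the interaction (-1.74 ± 0.46, adjusted p = 0.387). Only 113 and 31 choroid plexus cells were in the MCAO/R + WT libraries, against 1347 to 2092 in the MCAO/R + Lrg1-/- libraries. In the former, 17 and 5 cells had a UMI of Edn3. Endothelial cells of these 2 libraries had 36.9 and 70.4 CPM, and the part of RNA from other types was not tested.

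Nos3, the constitutive endothelial synthase, passed in no comparison of endothelial cells. It was at 167, 202 and 202 CPM in sham + WT mice, 186, 183 and 168 in sham + Lrg1-/- mice, 209 and 210 in MCAO/R + WT mice and 205, 277 and 171 in MCAO/R + Lrg1-/- mice. MCAO/R minus sham was 0.12 ± 0.15 (edgeR adjusted p = 0.676) in wild-type mice and 0.27 ± 0.14 (adjusted p = 0.208) in knockout mice. Knockout minus wild type was 0.07 ± 0.16 after MCAO/R (adjusted p = 0.767).

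Nos2 fell after MCAO/R in endothelial cells of both genotypes. It was at 7.83, 10 and 9.77 CPM in sham + WT mice and at 2.56 and 2.93 in MCAO/R + WT mice, without overlap (0.294 times, log2 difference -1.77 ± 0.24, edgeR adjusted p = 2.69e-04; 15.9% of endothelial genes called). The call held in 19 of 19 settings. In knockout mice it was at 8.51, 7.41 and 7.27 CPM after sham surgery and at 5.34, 3.63 and 3.05 CPM after MCAO/R, again without overlap (0.504 times, -0.99 ± 0.22, adjusted p = 0.0096). That call was lost with cells thinned to 1000 UMIs and without MCAO/R + Lrg1-/- replicate 2. The responses of the genotypes were not shown to differ (interaction 0.78 ± 0.32, adjusted p = 0.302), nor were the MCAO/R groups (0.54 ± 0.25, adjusted p = 0.132).

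In wild-type mice Nos2 was also lower within zones, as levels without a test of their own. It went from 12.4 ± 1.46 CPM (SD, n = 3) after sham surgery to 0.0 and 2.32 CPM after MCAO/R in capillary cells, on 547 and 3 UMIs. In venous cells it went from 9.61 ± 1.04 to 3.61 and 3.69 CPM and in cells without a zone from 7.53 ± 3.22 to 2.4 and 3.06 CPM, and the groups did not overlap in any of these 3. In knockout mice they did not overlap in cells without a zone (7.39 to 11.5 and 3.65 to 3.99 CPM) but did in capillary cells (9.42 to 11.7 and 3.36 to 10.3 CPM) and venous cells. The zone make-up moved as well, since capillary cells, where Nos2 was highest in sham mice, were 3.49% and 8.6% of the MCAO/R + WT endothelial cells. In arterial cells alone, MCAO/R minus sham was -0.78 ± 0.56 in wild-type mice (adjusted p = 0.43) and 0.07 ± 0.46 in knockout mice (adjusted p = 0.942). Without arterial and fenestrated cells it was -1.93 ± 0.21 and -1.40 ± 0.21. Arterial Nos2 was higher in MCAO/R + Lrg1-/- mice than in MCAO/R + WT mice by 1.78 ± 0.55 (adjusted p = 0.0402), on 72 and 13 UMIs.

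**Figure D3:**
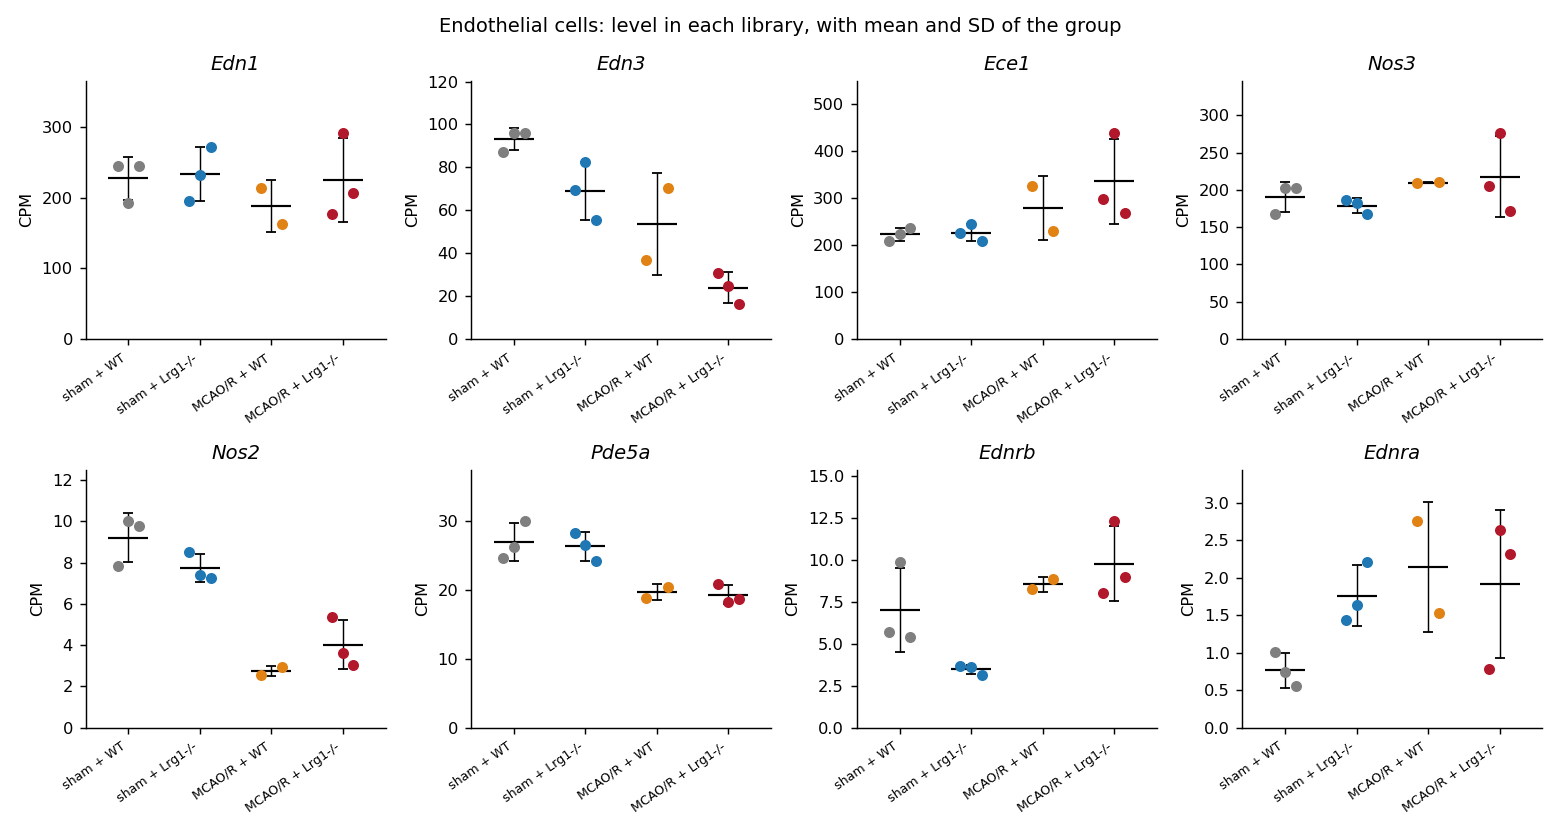
Levels of the 8 genes in endothelial cells, in CPM on a linear axis, 1 point per library by group (3, 3, 2 and 3 mice), with the group mean as a line and the SD as a bar. Edn3 is lowest in MCAO/R + Lrg1-/- mice (16.1 to 30.8 CPM), Nos2 is lower in both MCAO/R groups than in both sham groups, and the points of Edn1 overlap in all groups.

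Endothelial Ece1 rose in the knockout after MCAO/R, from 225, 246 and 209 CPM to 298, 440 and 269 CPM (1.47 times, log2 difference 0.55 ± 0.16, edgeR adjusted p = 0.0335). The call held in 14 of 19 settings and was lost without any 1 of the 3 sham + Lrg1-/- libraries, without MCAO/R + Lrg1-/- replicate 2 and with the replicate number as a block. In wild-type mice the levels were 209, 223 and 237 CPM after sham surgery and 327 and 230 after MCAO/R, and they overlapped. In arterial cells alone, Ece1 of the knockout rose from 217, 237 and 210 to 391, 539 and 497 CPM (1.02 ± 0.20, adjusted p = 0.00591). The levels of other zones have no test of their own. Venous cells had 196 to 220 CPM after sham surgery and 283 to 337 after MCAO/R in knockout mice and 186 to 213 and 231 to 300 CPM in wild-type mice, without overlap in either. Cells without a zone had 146 to 200 and 240 to 278 CPM in knockout mice and 136 to 179 and 215 to 261 CPM in wild-type mice, again without overlap. Capillary cells of the knockout overlapped, at 251 to 275 and 215 to 296 CPM. Without arterial and fenestrated cells the difference was 0.22 ± 0.13 and did not pass (adjusted p = 0.265).

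Endothelial Pde5a fell in both genotypes. It was at 24.6, 26.3 and 30.0 CPM in sham + WT mice and 18.9 and 20.5 in MCAO/R + WT mice (0.721 times, -0.47 ± 0.13, edgeR adjusted p = 0.028). The sham + Lrg1-/- group had 28.3, 26.5 and 24.2 CPM and the MCAO/R + Lrg1-/- group 20.9, 18.3 and 18.7 (0.724 times, -0.47 ± 0.12, adjusted p = 0.0216). Neither pair of groups overlapped, and the calls held in 12 and 15 of 19 settings. The wild-type call was lost without sham + WT replicates 2 or 3 and without either MCAO/R + WT library, and the knockout call without sham + Lrg1-/- replicates 1 or 2 and without MCAO/R + Lrg1-/- replicate 2. The smooth muscle markers, from the type with most Pde5a, were lower in endothelial cells after MCAO/R too, at 365, 615 and 1356 CPM and then 207, 205 and 284 in knockout mice and at 149 to 174 and then 111 and 126 CPM in wild-type mice, and their part was not tested. Capillary cells did not share the lower level of Pde5a, with 24.1 to 29.3 CPM after sham surgery and 42.2 and 22.4 after MCAO/R in wild-type mice, and 25.3 to 30.1 and 21.8 to 44.3 CPM in knockout mice, on 58 UMIs in each MCAO/R group. In cells without a zone the level was 21.7 to 25.9 and then 18.6 and 20.4 CPM in wild-type mice, and 23.0 to 33.2 and then 19.0 to 20.3 CPM in knockout mice, without overlap. In arterial cells alone neither difference passed (-0.74 ± 0.24, adjusted p = 0.0562; -0.46 ± 0.22, adjusted p = 0.185).

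Endothelial Ednrb rose in the knockout after MCAO/R, at a low level. It was at 3.69, 3.58 and 3.16 CPM in sham + Lrg1-/- mice and at 8.01, 12.3 and 9.0 CPM in MCAO/R + Lrg1-/- mice (2.81 times, 1.49 ± 0.26, edgeR adjusted p = 0.00246), a call lost in 1 of 19 settings, with thinned cells. The sham + WT group stood at 5.68, 9.88 and 5.4 CPM, above every sham + Lrg1-/- library (knockout minus wild type -0.98 ± 0.25, 0.507 times, adjusted p = 0.0154, with 19.9% of endothelial genes called), and the MCAO/R + WT group at 8.24 and 8.86 CPM. The sham call was lost without sham + WT replicate 2 and without sham + Lrg1-/- replicates 2 or 5.

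A small group of cells carried much of the sham difference. The 155 fenestrated endothelial cells, of the kind that line choroid plexus capillaries, had 186 to 318 CPM of Ednrb in sham + WT mice and held 50%, 64.0% and 58.2% of its endothelial Ednrb UMIs. There were 27, 31 and 36 such cells in the sham + WT libraries and 4, 1 and 2 in the sham + Lrg1-/- libraries, where they held 11.1%, 2.27% and 5.0%. Without them, the sham groups differed by 0.18 ± 0.26 (adjusted p = 0.687), with the opposite sign. Without them, Ednrb rose after MCAO/R in both genotypes, by 1.05 ± 0.26 in wild-type mice (adjusted p = 0.0152) and by 1.37 ± 0.26 in knockout mice (adjusted p = 0.00396), and the interaction was 0.33 (adjusted p = 0.771). In arterial cells alone the increases were 1.63 ± 0.47 (adjusted p = 0.039) and 1.67 ± 0.51 (adjusted p = 0.0442). Over all endothelial cells of wild-type mice, astrocyte markers went from 112 to 121 CPM up to 150 and 176 CPM. Pericyte markers went from 39.2 to 60.3 CPM up to 74.9 and 78.4 CPM. In knockout mice both overlapped (115 to 144 and 122 to 158 CPM, 41.6 to 125 and 42.6 to 76.4 CPM). The part of either in the Ednrb results was not tested.

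Endothelial Ednra passed in wild-type mice (1.48 ± 0.43, edgeR adjusted p = 0.0311) at levels of 0.547 to 1.01 CPM after sham surgery and 2.75 and 1.53 CPM after MCAO/R. The call was lost without sham + WT replicates 2 or 3 and without MCAO/R + WT replicate 1. The 8 pericyte markers, from the type with most Ednra, summed in endothelial cells to 60.3, 39.8 and 39.2 CPM in sham + WT mice and 74.9 and 78.4 CPM in MCAO/R + WT mice, without overlap. The 8 smooth muscle markers went from 149 to 174 CPM down to 111 and 126 CPM. The part of either in the result was not tested.

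**Figure D4:**
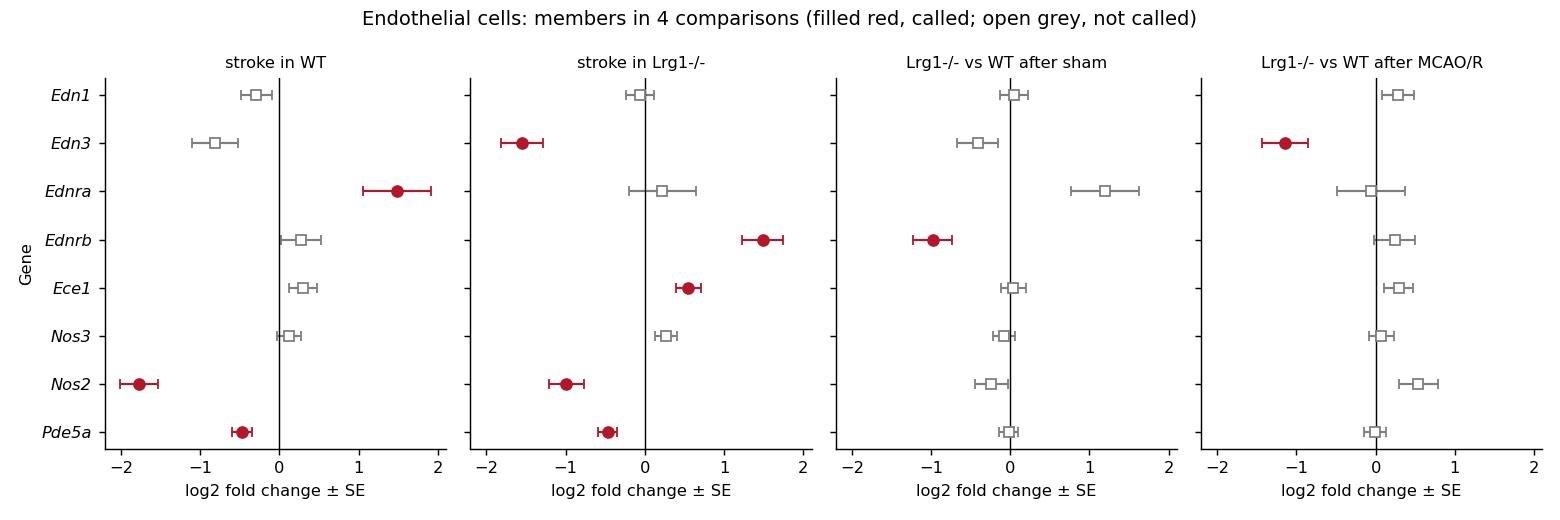
Log2 differences with SE of the 8 genes in endothelial cells in the 4 comparisons (MCAO/R minus sham in each genotype, knockout minus wild type in each surgery); filled red points passed the test and open grey points did not. Among the filled points, Nos2 in wild-type mice (-1.77), Edn3 in knockout mice (-1.55), Ednrb in knockout mice (1.49) and Ednra in wild-type mice (1.48) after MCAO/R are farthest from 0, and Edn1 and Nos3 have no filled point.

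In named pericytes and vascular smooth muscle cells, the receptor of constriction did not pass in any comparison. Cells without a name held 3313 of the 13551 Ednra UMIs and 5035 of the 26337 Pde5a UMIs, and entered no test. Pericyte Ednra was at 224, 284 and 289 CPM in sham + WT mice, 245, 308 and 155 in sham + Lrg1-/- mice, 325 and 346 in MCAO/R + WT mice and 226, 289 and 121 in MCAO/R + Lrg1-/- mice. The MCAO/R groups did not overlap, but their difference of -0.60 ± 0.31 did not pass (edgeR adjusted p = 0.191). Smooth muscle Ednra was at 106, 152 and 159, then 109, 104 and 60.6, then 229 and 159, and then 93.3, 209 and 131 CPM in the same order of groups, with all 4 adjusted p between 0.19 and 0.515.

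Pericyte Ece1 was lower in the knockout, with or without MCAO/R. It was at 405, 382 and 416 CPM in sham + WT mice and 359 and 431 in MCAO/R + WT mice, but at 161, 137 and 119 in sham + Lrg1-/- mice and 119, 166 and 95.8 in MCAO/R + Lrg1-/- mice. All 5 wild-type libraries lay above all 6 knockout libraries. Knockout minus wild type was -1.45 ± 0.23 after sham surgery (0.365 times, edgeR adjusted p = 0.00132, against 6.49% of pericyte genes called) and -1.56 ± 0.23 after MCAO/R (0.339 times, adjusted p = 3.65e-04, against 18.4%). Each call held in every setting in which it could be fitted (18 of 18 and 19 of 19).

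The difference was also seen within sub-clusters. When Ece1 was summed over the libraries of a group, the knockout was lower in 5 of 5 pericyte sub-clusters after sham surgery and in 5 of 5 after MCAO/R, as values without a test. The largest sub-cluster had 532 CPM in sham + WT mice, 232 in sham + Lrg1-/- mice, 454 in MCAO/R + WT mice and 199 in MCAO/R + Lrg1-/- mice. It was mostly made of wild-type cells, with 426 of 880, 15 of 110, 656 of 1038 and 48 of 336 pericytes in the same order, so the make-up of the pericytes moved with the genotype as well. The gap was narrowest in another sub-cluster, with 169, 139, 220 and 196 CPM. Without a sub-cluster of 219 cells that carried endothelial RNA, the differences were -1.45 ± 0.23 after sham surgery (adjusted p = 1.61e-04) and -1.25 ± 0.19 after MCAO/R (adjusted p = 3.7e-05). Knockout pericytes were few, 24 to 45 per sham library and 31 to 198 per MCAO/R library. They carried 2594 to 141222 CPM of red blood cell markers, against 19.4 to 80.4 in the wild type, and the call held with haemoglobin removed. Choroid plexus markers in pericytes were at 14707 to 32435 CPM in the knockout and 112 to 2273 CPM in the wild type. Smooth muscle markers were at 4579 to 6782 CPM in sham + Lrg1-/- mice against 2489 to 2961 in sham + WT mice, and overlapped after MCAO/R (1847 to 2630 and 1713 to 2057 CPM). The part of the choroid plexus and smooth muscle RNA in this result was not tested. Smooth muscle Ece1, at 55.7 to 105 CPM, did not show this pattern.

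Pericyte Ednrb varied widely between mice. It was at 19.5, 9.29 and 12.6 CPM in sham + WT mice, 32.2, 137 and 41.4 in sham + Lrg1-/- mice, 342 and 20.7 in MCAO/R + WT mice and 488, 538 and 71.8 in MCAO/R + Lrg1-/- mice. Every sham + WT library was below every other library, but no comparison passed (3.68 ± 1.30 for MCAO/R in wild-type mice, edgeR adjusted p = 0.333; 2.30 ± 1.28 in knockout mice, adjusted p = 0.43). The replicates of both MCAO/R groups lay far apart. The highest values were in the sub-cluster led by Ccl19 and Steap4, where Ednrb summed over the libraries of a group was at 36.3 CPM in sham + WT mice, 158 in sham + Lrg1-/- mice, 288 in MCAO/R + WT mice and 951 in MCAO/R + Lrg1-/- mice. In the largest sub-cluster it was at 11.9, 87.0, 183 and 328 CPM. MCAO/R + WT replicates 1 and 2 had 467 and 28.9 CPM in the former sub-cluster and 420 and 18.5 CPM in the largest. The sham + Lrg1-/- value in the largest rests on 6 UMIs in 15 cells.

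Smooth muscle Ednrb rose in the knockout after MCAO/R. It was at 3.82, 1.94 and 4.13 CPM in sham + Lrg1-/- mice and 12.9, 63.0 and 16.0 in MCAO/R + Lrg1-/- mice (9.32 times, 3.22 ± 0.66, edgeR adjusted p = 0.0366, with 1.71% of the type's genes called). The call held in 11 of 18 settings. It was lost without MCAO/R + Lrg1-/- replicate 2, the highest library, without any 1 sham + Lrg1-/- library and without sham + WT replicate 2. The sham + WT group stood at 5.18, 4.37 and 2.38 CPM and the MCAO/R + WT group at 17.4 and 4.83, with overlap. Over all libraries, smooth muscle cells had a mean of 12.4 CPM of Ednrb. Astrocytes, macrophages and pericytes had 206, 167 and 156 CPM. The part of RNA from these types in the smooth muscle result was not tested.

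Pericyte Pde5a was lower in the knockout after MCAO/R, with 127, 186 and 107 CPM against 243 and 279 (0.567 times, -0.82 ± 0.25, edgeR adjusted p = 0.0293). This call held in 10 of 19 settings, was lost without either MCAO/R + WT library and without MCAO/R + Lrg1-/- replicates 1 or 5, and stood at -0.37 (adjusted p = 0.18) without the sub-cluster with endothelial RNA. Smooth muscle Pde5a, at 283, 396 and 418, 329, 283 and 126, 306 and 359, and 175, 259 and 231 CPM in the 4 groups, passed in no comparison.

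**Figure D5:**
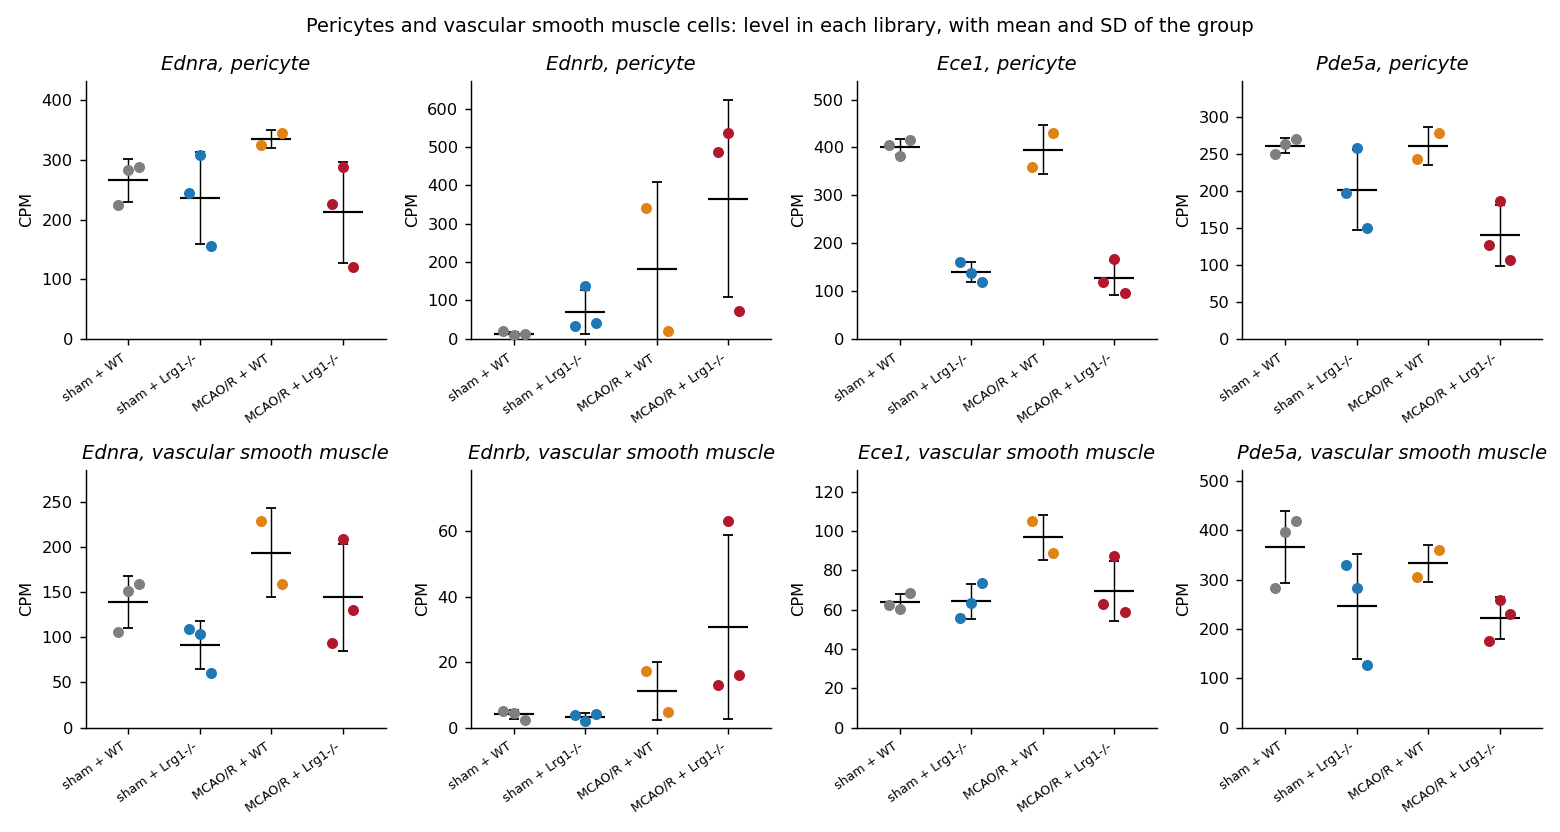
Levels of Ednra, Ednrb, Ece1 and Pde5a in pericytes (top) and vascular smooth muscle cells (bottom), in CPM on linear axes, 1 point per library by group, with the mean as a line and the SD as a bar. Pericyte Ece1 is at 359 to 431 CPM in the wild-type libraries and 95.8 to 166 CPM in the knockout libraries, and pericyte Ednrb spreads from 9.29 to 538 CPM.

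In astrocytes, Ednrb was at 230, 327 and 337 CPM in sham + WT mice, 191, 156 and 89.0 in sham + Lrg1-/- mice, 224 and 185 in MCAO/R + WT mice and 213, 192 and 124 in MCAO/R + Lrg1-/- mice. The sham groups did not overlap, yet -0.90 ± 0.30 did not pass (edgeR adjusted p = 0.13), and neither did MCAO/R in wild-type mice (-0.56 ± 0.32, adjusted p = 0.461). Astrocyte Ednra was lower after MCAO/R in wild-type mice, from 17.4, 21.1 and 22.6 CPM to 4.17 and 7.71 CPM (0.302 times, -1.73 ± 0.38, adjusted p = 0.0455, against 1.52% of astrocyte genes called). That call held in 8 of 18 settings and was lost without any 1 of the 3 sham + WT libraries, MCAO/R + WT replicate 1, sham + Lrg1-/- replicate 2 and MCAO/R + Lrg1-/- replicates 2 or 5. Pericyte markers in astrocytes overlapped between these groups (149 to 193 and 139 to 219 CPM).

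Among myeloid cells, macrophage Ednrb was high and variable, at 148 to 255 CPM in sham + WT mice, 43.1 to 257 in sham + Lrg1-/- mice, 76.5 and 181 in MCAO/R + WT mice and 120 to 262 in MCAO/R + Lrg1-/- mice, and passed in no comparison. Monocytes had 0 UMIs in 3 sham + WT libraries of 21 to 23 cells, 2 UMIs in 1 sham + Lrg1-/- library and 0 in another. In the MCAO/R + Lrg1-/- group Ednrb was at 23.5, 43.4 and 37.6 CPM, on 670 UMIs over the group, and 94.1 CPM were found in the single MCAO/R + WT library with enough monocytes. The ratio of the summed MCAO/R + Lrg1-/- and sham + Lrg1-/- levels was 11.3, with an exact 95% interval of 3.1 to 93.1 that covers counting error only. The test across genes gave 3.46 ± 0.79 (edgeR adjusted p = 0.0111, against 13.6% of monocyte genes called), and was lost without sham + Lrg1-/- replicate 5.

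Calls in the remaining types rested on low levels. In oligodendrocytes after MCAO/R, the knockout had more Edn1 (11.7, 9.14 and 4.93 against 3.47 and 2.04 CPM; 1.65 ± 0.45, edgeR adjusted p = 0.0116), more Ece1 (15.3, 24.5 and 10.7 against 10.2 and 7.08; 1.03 ± 0.33, adjusted p = 0.0281) and more Pde5a (2.02, 3.92 and 2.36 against 0.452 and 1.13; 1.76 ± 0.45, adjusted p = 0.00826). All 3 calls were lost with doublets kept, those of Edn1 and Ece1 also without MCAO/R + WT replicate 2, that of Ece1 without MCAO/R + Lrg1-/- replicate 2 and that of Pde5a without MCAO/R + WT replicate 1. In this comparison 32.9% of all oligodendrocyte genes passed. Endothelial markers in oligodendrocytes summed to 330 and 256 CPM in MCAO/R + WT mice and 259 to 706 CPM in MCAO/R + Lrg1-/- mice. Smooth muscle markers, from the type with most Pde5a, did not overlap, at 70.7 and 76.6 against 190 to 261 CPM, nor did choroid plexus markers, at 183 and 87.4 against 3051 to 5680 CPM. The part of these markers in the results was not tested. Oligodendrocyte Edn3, at most 1.16 CPM in the MCAO/R groups, passed with overlapping groups (-2.04 ± 0.72, adjusted p = 0.0391) and held in 9 of 18 settings.

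Oligodendrocyte Pde5a also fell after MCAO/R in wild-type mice, from 4.82, 2.57 and 2.98 CPM to 0.452 and 1.13 CPM (0.246 times, -2.02 ± 0.42, edgeR adjusted p = 0.00251, against 22.6% of the type's genes called), in 18 of 18 settings. The smooth muscle markers in these cells were lower too, at 136, 133 and 106 CPM after sham surgery and 70.7 and 76.6 CPM after MCAO/R, and their part was not tested.

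In pericytes, Edn1 and Nos3 were higher in the knockout, at levels far under the endothelial ones. Edn1 was at 4.73, 3.1 and 4.88 CPM in sham + WT mice and 40.2, 7.6 and 56.9 in sham + Lrg1-/- mice, on 23 UMIs in all in the latter (3.02 ± 0.70, edgeR adjusted p = 0.0176), a call lost without sham + WT replicate 2 and without sham + Lrg1-/- replicates 1 or 5. After MCAO/R the groups overlapped for Edn1 (1.89 ± 0.60, adjusted p = 0.0394; 8 of 18 settings) and for Nos3 (1.63 ± 0.49, adjusted p = 0.0275; 12 of 18 settings). All 8 endothelial markers were above 0 in pericytes of every group, with sums of 529 to 570 CPM in sham + WT mice, 1075 to 2324 in sham + Lrg1-/- mice, 776 to 806 in MCAO/R + WT mice and 698 to 1609 in MCAO/R + Lrg1-/- mice. Without the sub-cluster with endothelial RNA, both Edn1 calls were lost (adjusted p = 0.46 and 0.21) and Nos3 was too low to test.

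After sham surgery, ciliated ependymal cells of the knockout had more Edn1 (30.2, 22.0 and 57.4 against 7.78, 9.41 and 9.51 CPM; 2.09 ± 0.55, edgeR adjusted p = 0.0485) and more Ece1 (21.8, 30.4 and 74.6 against 16.5, 12.9 and 10.5; 1.69 ± 0.44, adjusted p = 0.0462), with 5.42% of the type's genes called. These held in 6 and 8 of 18 settings, each was lost without any 1 sham + WT library, and endothelial markers there summed to 895 to 1052 CPM in sham + WT mice and 1149 to 4180 CPM in sham + Lrg1-/- mice. Smooth muscle markers (576 to 774 against 1186 to 2600 CPM) and choroid plexus markers (469 to 4551 against 22372 to 34188 CPM) also differed without overlap. Microglia of the knockout had more Ece1 (17.8, 21.8 and 24.3 against 11.4, 13.8 and 14.3 CPM; 0.76 ± 0.25, adjusted p = 0.0434) and more Pde5a (2.22, 4.92 and 1.54 against 1.15, 1.19 and 1.22; 1.43 ± 0.39, adjusted p = 0.0166), with 22.3% of microglial genes called. They held in 11 and 14 of 19 settings, the Ece1 call was lost without any 1 sham library, the Pde5a call was lost without sham + WT replicates 1 or 2 or sham + Lrg1-/- replicate 2, and endothelial markers in microglia overlapped between these groups (275 to 355 and 257 to 409 CPM). Smooth muscle markers in microglia did not (107 to 139 and 280 to 333 CPM), nor did choroid plexus markers (326 to 571 and 2937 to 3496 CPM). The part of these markers in the results was not tested.

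Partner genes were taken from 3 lists, endothelin signalling (14 genes), nitric oxide synthesis (21) and nitric oxide reception (18 gene symbols, of which 17 were in the count tables). They were not tested by endothelial zone. Capillary cells made up 57.5% to 68.4% of the endothelial cells in sham + WT mice and 39.1% to 52.2% in sham + Lrg1-/- mice. After MCAO/R they made up 3.49% and 8.6% in wild-type and 3.11% to 16.3% in knockout mice. The part of this shift in the endothelial results for partner genes was not tested. In endothelial cells, 10 of 21 synthesis genes differed between the MCAO/R groups (5 higher and 5 lower in the knockout), against 22.7% of all endothelial genes, with a median of 0.37 against 0.04 over all genes. Between the sham groups, 0 were higher and 3 lower in the knockout, against 19.9% of all, with a median of 0.15 against 0.01. That count is no more than the share of all genes gives. From sham surgery to MCAO/R, 0 were higher and 5 lower in wild-type mice (15.9% of all). In knockout mice 4 were higher and 4 lower (16.9%). Cav1, the caveolar protein that holds Nos3 inactive, fell after MCAO/R in both genotypes, from a mean of 230 to 65.9 CPM in wild-type mice (-1.82 ± 0.17, edgeR adjusted p = 1.16e-05) and from 276 to 155 CPM in knockout mice (-0.84 ± 0.14, adjusted p = 0.00211). The responses differed between the genotypes by the interaction test (0.98 ± 0.21, adjusted p = 0.0438, against 1.04% of endothelial genes). Slc7a1, an arginine transporter, was at 596 CPM in sham + WT mice and lower in sham + Lrg1-/- mice (329 CPM; -0.85 ± 0.15, adjusted p = 0.00174) and in MCAO/R + WT mice (338 CPM; -0.84 ± 0.17, adjusted p = 0.00385). Nostrin, which moves Nos3 off the membrane, was lower in the knockout after sham surgery (-0.68 ± 0.16, adjusted p = 0.011) and after MCAO/R (-1.07 ± 0.18, adjusted p = 0.00125). Gch1, the first enzyme of the synthase's cofactor tetrahydrobiopterin, was lower in the knockout after sham surgery (145 against 232 CPM; -0.66 ± 0.11, adjusted p = 0.0016).

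Of 12 testable endothelin signalling genes in endothelial cells, 2 differed between the MCAO/R groups (22.7% of all endothelial genes did), 6 between the wild-type groups (15.9% of all), 1 between the knockout groups (16.9%) and 6 between the sham groups (19.9%). The counts of 2 and 1 are no more than the share of all genes gives. Plcb4, a phospholipase below Gq-coupled receptors, rose after MCAO/R in wild-type mice (442 to 870 CPM; 0.96 ± 0.18, edgeR adjusted p = 0.00324) and was lower in the knockout after MCAO/R (329 CPM; -1.38 ± 0.19, adjusted p = 3.49e-04). In pericytes, Itpr1, the calcium channel opened by that pathway, followed the same course, with 574 CPM in sham + WT mice, 1390 in MCAO/R + WT mice (1.26 ± 0.26, adjusted p = 0.0138) and 318 in MCAO/R + Lrg1-/- mice (-2.07 ± 0.26, adjusted p = 1.24e-04). Sham + Lrg1-/- mice had 341, 261 and 230 CPM of endothelial Plcb4, below the 398 to 476 of sham + WT mice. They had 330, 315 and 155 CPM of pericyte Itpr1, below the 547 to 588 of sham + WT mice. By the interaction test, 0 of 12 endothelial and 0 of 11 pericyte genes of this list passed.

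Nitric oxide reception was tested in mural cells, where the receivers are. After MCAO/R, 6 of 15 pericyte genes were lower and 1 was higher in the knockout, with a median of -0.58 against -0.02 over all pericyte genes, of which 18.4% were called. The pericytes of these knockout mice carried 14707 to 18950 CPM of choroid plexus markers and 2594 to 35673 CPM of red blood cell markers, against 112 to 288 and 19.4 to 24.9 CPM in the wild type, and the part of this RNA was not tested. The sub-cluster with endothelial RNA held 89 of 336 pericytes of the MCAO/R + Lrg1-/- group and 23 of 1038 of the MCAO/R + WT group. Reception genes other than Pde5a were not tested without it. The guanylate cyclase subunits Gucy1a1 (180 against 390 CPM; -1.06 ± 0.24, edgeR adjusted p = 0.00546) and Gucy1a2 (253 against 607 CPM; -1.20 ± 0.38, adjusted p = 0.0424) were among the lower ones. Between the sham groups, 0 of 15 pericyte genes passed, against 6.49% of all pericyte genes, with a median of -0.38 against -0.04. Pde10a, another cyclic nucleotide phosphodiesterase, rose in pericytes after MCAO/R in wild-type mice (49.1 to 286 CPM; 2.53 ± 0.33, adjusted p = 5.95e-04, against 1.66% of pericyte genes) and in knockout mice (17.4 to 104 CPM; 2.54 ± 0.49, adjusted p = 0.0164, against 2.26%). Smooth muscle cells of knockout mice also had an increase (10.3, 8.75 and 2.86 CPM to 29.3, 283 and 278; 4.73 ± 0.73, adjusted p = 0.0136), with replicate 1 far below the other MCAO/R + Lrg1-/- libraries. Those of wild-type mice had 27.2, 44.3 and 32.4 CPM after sham surgery and 121 and 122 after MCAO/R, also without overlap. In smooth muscle after MCAO/R, 1 of 16 genes was lower and 0 were higher in the knockout, with a median of -0.43 against 0.03 over all genes. Of all 12789 smooth muscle genes, 710 passed there. In smooth muscle after sham surgery, 3 of 16 genes were lower and 1 higher in the knockout, against 12.4% of all smooth muscle genes called, with a median of -0.80 against 0.01 over all genes. The lower ones were Prkg1, the cGMP-dependent kinase (1095 against 3097 CPM; -1.48 ± 0.36, adjusted p = 0.0275), Gucy1a2 (-1.44 ± 0.40, adjusted p = 0.0396) and the potassium channel Kcnma1 (216 against 478 CPM; -1.12 ± 0.24, adjusted p = 0.0196). Replicate 5 was the lowest sham + Lrg1-/- library for each, with 551 CPM of Prkg1 against 1601 and 1133, 34.9 CPM of Gucy1a2 against 95.1 and 78.4, and 146 CPM of Kcnma1 against 283 and 218. All sham + Lrg1-/- libraries were below all sham + WT libraries for these 3 genes. Smooth muscle cells of these groups also differed in endothelial markers (1105 to 4220 CPM in the knockout, 473 to 855 in the wild type) and choroid plexus markers (19891 to 35768 and 319 to 543 CPM), and the part of this RNA was not tested. No reception gene of astrocytes passed in any comparison, and endothelial Pde2a, which breaks down cGMP and cAMP, differed in its response by genotype (interaction -1.34 ± 0.25, adjusted p = 0.0213).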

How the data were processed

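The deposited matrices hold raw, unnormalized UMI counts of genes in barcodes, which the authors made with Cell Ranger. The matrix headers name version 7.0.1 while the study's methods name an older one, and the submitters' processing notes name STAR and mm10. Whether intronic reads were counted is not given in the sources used here. Each library is 1 mouse, placed in its group by its label.

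Cells with more than 500 genes, more than 1000 UMIs and less than 25% mitochondrial UMIs were retained. Doublets were scored with Scrublet in scanpy. The automatic threshold marked 0% of cells in 6 of 11 libraries, 5 of them knockout libraries, and there the highest scores at the expected rate of doublets were removed. Cells were clustered with scanpy 1.11.5 (Python 3.11.15) from 2010 variable genes, 15 principal components and 3 neighbours per library, by Leiden communities (resolution 1.0, then 0.6 within clusters). The 8 members, Lrg1, haemoglobin and mitochondrial genes were kept out of the genes used for clustering. Of 81 sub-clusters, 67 were named, giving 19 types, and the authors' own cell names were not used here.

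Counts were summed per library and type where at least 20 cells were present, and fitted per type with edgeR 4.0.16 (R 4.3.3, limma 3.58.1), with TMM scaling, the package's filter on low counts and robust quasi-likelihood tests adjusted by Benjamini‒Hochberg over all genes of a type. At least 1 of the 8 genes could be tested in 15 types. All groups entered 1 fit, so that the MCAO/R + WT group with 2 mice shared the spread of the others. The fit was tested on simulated counts. Alternatives were DESeq2 1.42.0, no filter on low counts, doublets kept, a 10% mitochondrial limit, at least 50 cells, cells thinned to 1000 UMIs, haemoglobin removed, a replicate block and leaving out each library. Restricting endothelial cells by zone and leaving out a pericyte sub-cluster were chosen after seeing the data. Members were named in the types where they were highest or called. Partner genes were drawn from the 4 called genes of a list with the largest change in each comparison and type, and likeness used genes of at least 10 CPM in some type. Members, lists and rules were chosen with earlier results of these data known. The number of mice and the UMIs behind a value limit its precision.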

Additional observations from a re-analysis of the deposited data

Results flagged for a closer look

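Cells that could not be given a cell type name, which enter no comparison of the report, also held Ednrb. In these cells, the lowest library of the MCAO/R + Lrg1-/- group, at 9.89 CPM, was above the highest library of the sham + Lrg1-/- group, at 9.43 CPM. The other MCAO/R + Lrg1-/- libraries had 14.8 and 33.1 CPM and the other sham + Lrg1-/- libraries 5.89 and 6.08 CPM. In wild-type mice the groups overlapped, at 8.4, 17.6 and 12.4 CPM after sham surgery and 39.0 and 13.6 CPM after MCAO/R. Between the genotypes, Ednra, Pde5a and Edn3 did not overlap in these cells after either surgery. Ednra was at 64.8 to 144 CPM in sham + WT mice and 14.4 to 48.3 in sham + Lrg1-/- mice. After MCAO/R it was at 57.4 and 139 against 6.99 to 28.0 CPM. Pde5a was at 108 to 238 against 40.5 to 99.7 CPM, and then at 60.4 and 154 against 14.3 to 25.2 CPM. The other members overlapped after sham surgery, MCAO/R or both. None of these differences was tested, since unnamed cells are of no single type and made up a different part of each library. No group had enough mice for a test of single libraries that stand apart.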

How the results depend on the processing

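Counts of calls depended on depth, single libraries, the filter on low counts and the replicate block. For the knockout against the wild type after MCAO/R, 10 calls became 5 with doublets kept and 3 with cells thinned to 1000 UMIs, and ranged from 3 to 11 with 1 library left out (3 without MCAO/R + WT replicate 2). For MCAO/R in wild-type mice, 5 calls became 1 with thinned cells, with a range of 2 to 7 (2 without sham + WT replicate 2 or MCAO/R + WT replicate 1). For MCAO/R in knockout mice, 7 calls became 2 with thinned cells, with a range of 4 to 8. For the sham groups, 7 calls became 13 with no filter on low counts and 1 with thinned cells, with a range of 1 to 9 (1 without sham + WT replicate 2). The interaction had 0 calls, 1 with no filter and 0 to 2 with a library left out (2 without MCAO/R + Lrg1-/- replicate 2). The cause was not tested, except that thinning leaves fewer counts by its construction. Between groups, same-numbered libraries correlated between -0.41 and 0.27 in their deviations from group means, and differently numbered ones between -0.48 and 0.46. In groups of 2 or 3 mice such deviations depend on each other, so whether replicate numbers paired the mice could not be decided. With the replicate block, the counts of the 4 comparisons were 7, 2, 5 and 2. DESeq2 gave 10, 6, 9 and 10. Of the 29 calls, 29 kept their direction and side of the threshold with haemoglobin removed, 28 with a 10% mitochondrial limit, 27 with DESeq2, 26 with no filter on low counts, 19 with doublets kept, 16 to 26 with 1 library left out and 15 with the replicate block, and of those that could be compared 24 of 25 with at least 50 cells and 7 of 16 with thinned cells. Signs turned for endothelial Nos2 after MCAO/R in knockout mice in arterial cells alone (0.07), and for endothelial Ednrb between the sham groups without fenestrated cells (0.18) and without arterial and fenestrated cells (0.46). Where a level under about 10 CPM rests on few UMIs per library, absence of a call says little. In large cell types such levels can rest on more, such as 171, 231 and 286 UMIs of endothelial Nos2 in sham + WT mice.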

Other observations

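Among the cells without a name, a sub-cluster of 656 cells between vascular smooth muscle cells and pericytes in its markers, led by Olfr558 and Ano1, had 311 CPM of Ednra, 465 CPM of Pde5a and 48.2 CPM of Ednrb when all libraries were pooled, the receiver side of both pathways. A sub-cluster of 310 cells with markers of both pericytes and endothelial cells, at a median of 22830 UMIs per cell, had 315 CPM of Edn1 and 304 CPM of Ece1. These are values of pooled cells without a test.

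Arg1, an arginase that uses the substrate of nitric oxide synthases, was at 0.785, 8.78 and 19.2 CPM in endothelial cells of the MCAO/R + Lrg1-/- group and at 0 to 1.37 CPM in those of the other groups. Its order of libraries was the same in pericytes (0.0, 7.71 and 135 CPM), vascular smooth muscle cells (1.17, 5.95 and 22.3 CPM) and astrocytes (0.0, 4.49 and 35.3 CPM) of the MCAO/R + Lrg1-/- group, with replicate 5 highest in each. The study reports more Arg1 in microglia and macrophages of this group than of the MCAO/R + WT group. In the same order, these libraries held 29, 753 and 696 monocytes and 13, 290 and 1135 neutrophils. The part of RNA from myeloid cells in these Arg1 levels was not tested.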
